A study of Mus musculus with 16 samples.

Results

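The enzymes of triglyceride synthesis described here are 8 genes, Gpam, Agpat2, Agpat3, Lpin1, Lpin2, Lpin3, Dgat1 and Dgat2, among 22911 genes that the array measures. They were found by matching the RefSeq accession of each probe to the gene symbols, which gave 16 probes, and each gene was followed by its brightest probe. Their transcripts were measured in brown adipose tissue (BAT) and gonadal white adipose tissue (gWAT), on 16 arrays, 4 for each genotype in each tissue. The mice were male C57BL/6NCrSlc animals on normal chow at 23 °C. All of them carried the Pgam1 flox/flox allele. The Adipo-Pgam1 KO mice also carried Adipoq-Cre, and their littermate controls did not. The adiponectin promoter is active in adipocytes, while RNA was taken from whole tissue, which holds other cells as well. The mice were 16 weeks old, except those of Adipo-Pgam1 KO replicate 4, which were 14 weeks old in both tissues.

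Triglyceride is built by adding fatty acyl chains to a glycerol backbone. Gpam, the mitochondrial glycerol 3-phosphate acyltransferase, adds the first chain to glycerol 3-phosphate. Agpat2 and Agpat3 acylate the resulting lysophosphatidic acid to phosphatidic acid. The lipins Lpin1, Lpin2 and Lpin3 remove its phosphate to give diacylglycerol, and lipin proteins can also act on transcription in the nucleus. Dgat1 and Dgat2, which are unrelated in sequence, attach the last chain. Loss of AGPAT2 in humans causes a congenital absence of fat, and loss of Lpin1 in mice causes fatty liver dystrophy with little fat. In white fat this route serves storage, and in BAT it fills the small droplets that are burned for heat.

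A level below is the log2 of a probe's signal over the 75th percentile of its array, so 0 means a signal equal to that percentile. A log2 change of 1 is a doubling. Levels are compared between arrays for 1 probe and not between genes, because probes bind with different strength. The limma test was run on all genes that exceeded background clearly in 1 or more of the groups compared, on each of its 4 arrays, and a change was called when its Benjamini-Hochberg adjusted p was under 0.05. All 8 brightest probes were well above background on all 16 arrays, so no member was lost to that filter and none entered only through the group in which it was high. None of their spots was saturated. The SDs and p-values describe the spread between 4 arrays per group, and that number limits how precise they are.

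Some facts of the arrays touch these results. The 75th percentile used for scaling was 401 to 451 in BAT of controls against 650.2 to 916 in their Adipo-Pgam1 KO littermates. For gWAT it was 570.3 to 855 in controls and 657 to 831 in the arrays labelled Adipo-Pgam1 KO. BAT of control replicates 1 to 3 was on slide 1. Slide 2 held BAT of control replicate 4, all 4 BAT arrays of Adipo-Pgam1 KO mice and gWAT of control replicates 1 to 3, and slide 3 held the remaining gWAT arrays. Pgam1, the gene targeted, was lower in BAT of Adipo-Pgam1 KO mice (log2 change -1.74, limma adjusted p = 1.11e-05) whereas its level rose in gWAT by the labels (log2 change 0.95, limma adjusted p = 0.0139). The gWAT groups are therefore named by their labels, and every direction given for gWAT rests on those labels. In the same labelled arrays, 5 of the 7 brown adipocyte markers tested were higher, among them Cidea with a mean level of 2.85 in controls and 6.26 under the KO label. Ppargc1a had means of -0.57 and -1.09, and Prdm16 of -1.98 and -1.87. Elovl3 exceeded background clearly on 3 controls and 4 labelled arrays, so it was tested through the labelled group. Zic1 did so on no gWAT array.

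In BAT, both ends of the route and its second step were lower in Adipo-Pgam1 KO mice. Of the 8 enzymes, 5 fell and none rose. Across all 14280 genes tested in BAT, 61.5% were called, 34% as lower and 27.5% as higher. The median log2 change of the 8 enzymes was -0.86, and that of all genes tested was -0.08. The groups did not overlap for the same 5 enzymes, which held for 57.1% of all genes. Dgat2 had the largest change of the 8 and the 3 lipins the smallest. The levels on every array are shown in the plot of the 8 enzymes by group.

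**Figure D1:**
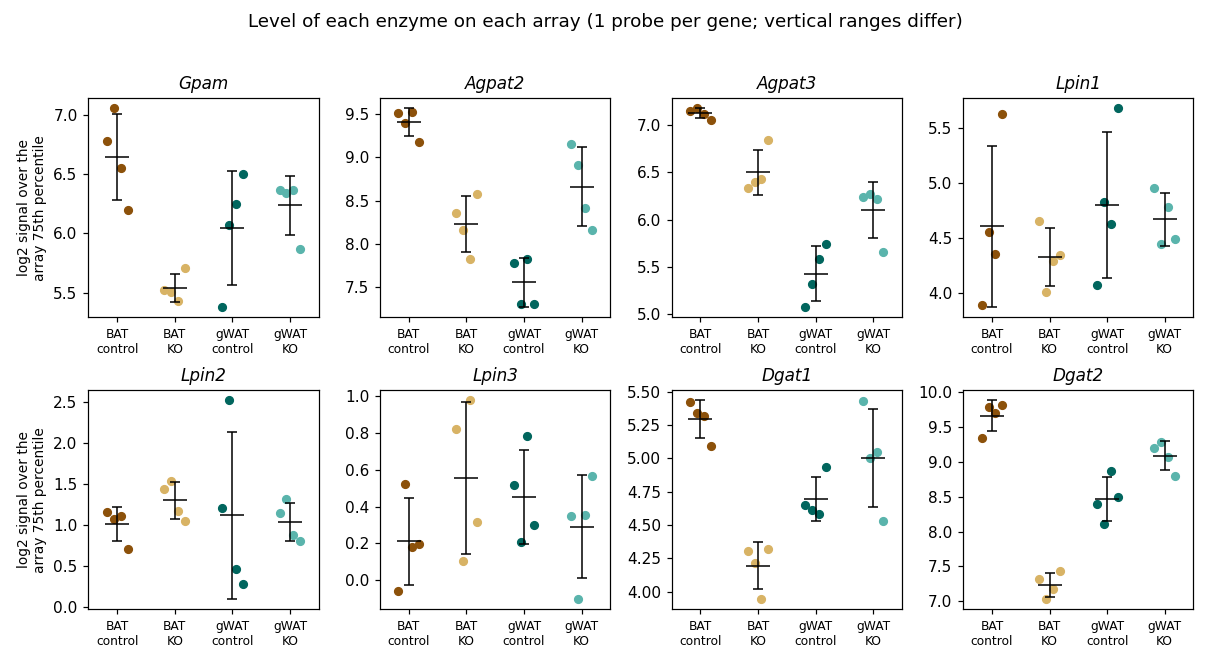
Level of each enzyme on each array, as log2 signal over the 75th percentile of the array (vertical axis), in BAT and gWAT of littermate controls and of arrays labelled Adipo-Pgam1 KO (horizontal axis). Points are arrays, 4 per group, and bars give the mean and the SD. In BAT the control and KO points are apart for Gpam, Agpat2, Agpat3, Dgat1 and Dgat2 and mixed for the 3 lipins.

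Gpam opens the route. Its levels in BAT were 6.78, 7.06, 6.55 and 6.19 in control replicates 1 to 4 and 5.52, 5.50, 5.43 and 5.71 in Adipo-Pgam1 KO replicates 1 to 4. Every control array was above every KO array, and the control on the same slide as the KO arrays was the lowest of the controls. The mean fell from 6.65 ± 0.36 to 5.54 ± 0.12 (SD, n = 4 each), a log2 change of -1.10 (SE 0.18, limma adjusted p = 7.06e-04), or 2.15-fold lower. With slide as a block, which sets control replicate 4 alone against the 4 KO arrays of slide 2, the change was -0.65 (SE 0.20, limma adjusted p = 0.0326). The spread in this fit comes from the slide 1 controls and the KO arrays, and the lone control is assumed to vary like them. In gWAT it comes from the slide 2 controls and the labelled arrays of slide 3, with control replicate 4 alone. The difference between tissues rests on both lone controls. The same assumption is made wherever a value with the slide block is given.

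Agpat2 makes phosphatidic acid and is an abundant acyltransferase of adipocytes. It stood at 9.51, 9.40, 9.53 and 9.18 in BAT of controls and at 8.36, 8.16, 7.82 and 8.58 in that of Adipo-Pgam1 KO mice. The lowest control lay above the highest KO array. The log2 change was -1.18 (SE 0.17, limma adjusted p = 3.84e-04), or 2.26-fold lower.

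Agpat3 carries out the same reaction and also acts on other lysophospholipids. It was very even in BAT of controls, at 7.15, 7.18, 7.12 and 7.06, against 6.33, 6.39, 6.43 and 6.85 in Adipo-Pgam1 KO mice. The KO array of the 14-week-old mouse was the highest of its group and still below every control. The log2 change was -0.63 (SE 0.13, limma adjusted p = 0.00241). Agpat3 was the one called enzyme whose call in BAT was lost under another scaling, with a change of -0.09 (limma adjusted p = 0.490) when arrays were scaled on the spike-in RNA, and with the slide block it was -0.56 (limma adjusted p = 0.0558). The second probe for Agpat3 gave -1.19 (SE 0.16, limma adjusted p = 2.31e-04).

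Dgat1 and Dgat2 close the route. Dgat1 was at 5.42, 5.34, 5.32 and 5.09 in BAT of controls and at 4.30, 4.21, 3.94 and 4.32 in that of Adipo-Pgam1 KO mice, a log2 change of -1.10 (SE 0.12, limma adjusted p = 9.45e-05). Dgat2 was at 9.33, 9.79, 9.69 and 9.82 in controls and at 7.32, 7.03, 7.17 and 7.43 in Adipo-Pgam1 KO mice. The gap between its lowest control and its highest KO array was wider than for the other 4 enzymes that fell. The log2 change of Dgat2 was -2.42 (SE 0.14, limma adjusted p = 7.62e-06), or 5.34-fold lower. Dgat1 and Dgat2 were each read by a single probe, so no other probe could be compared for them. With the slide block, again against 1 control array, the change of Dgat2 was -2.58. For each of the 5 enzymes that fell, the exact two-sided permutation test over the 8 BAT arrays gave p = 0.0286, the smallest that 4 against 4 arrays allow.

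The lipins, which take the step between the acyltransferases, did not pass the test in BAT. Lpin1 was at 3.89, 4.55, 4.36 and 5.62 in controls and at 4.65, 4.01, 4.29 and 4.34 in Adipo-Pgam1 KO mice, and control replicate 4 stood well above the other 7 arrays. The log2 change of Lpin1 was -0.28 (SE 0.33, limma adjusted p = 0.491). It was -1.30 (SE 0.29, limma adjusted p = 0.00948) with the slide block, where that high array is the only control compared, and 0.06 without it. A single control array thus set the size and the sign of the Lpin1 value. Of the other Lpin1 probes, 1 gave -0.26 (limma adjusted p = 0.554) and the dimmest gave -0.70 (SE 0.21, limma adjusted p = 0.0199), which passed the test. Lpin2 was at 1.16, 1.07, 1.11 and 0.71 in controls and at 1.44, 1.54, 1.18 and 1.05 in Adipo-Pgam1 KO mice, with a log2 change of 0.29 (SE 0.15, limma adjusted p = 0.120). Lpin3 was at -0.06, 0.52, 0.18 and 0.20 in controls and at 0.82, 0.10, 0.98 and 0.32 in Adipo-Pgam1 KO mice, with a log2 change of 0.34 (SE 0.21, limma adjusted p = 0.189). The groups overlapped for all 3 lipins. For Lpin2 and Lpin3 the sign depended on the scaling. Both passed the test as higher with spike-in scaling (0.83 and 0.89), as did Lpin2 with normexp and quantile normalization (0.43, limma adjusted p = 0.0174) and with the slide block (0.59, limma adjusted p = 0.0435), and both were below 0 when arrays were scaled on Actb and Rplp0 (-0.30 and -0.25).

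Since the 75th percentile itself differed between the genotypes in BAT, the 8 changes were set out under 6 scalings. The median of all genes tested moved from -0.08 to 0.46 with spike-in scaling and to -0.67 with Actb and Rplp0 scaling, and all enzymes moved with it. Dgat2 ranged from -3.01 to -1.79 over these scalings and was the lowest of the 8 in each of them. Gpam, Agpat2, Dgat1 and Dgat2 were called as lower under all 6, where 59% to 75.8% of all genes were called in either direction. Their smallest changes were -0.56 for Gpam and for Dgat1, with spike-in scaling, -0.38 for Agpat2, with normexp and quantile normalization (limma adjusted p = 0.0470), and -1.79 for Dgat2, with quantile normalization.

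**Figure D2:**
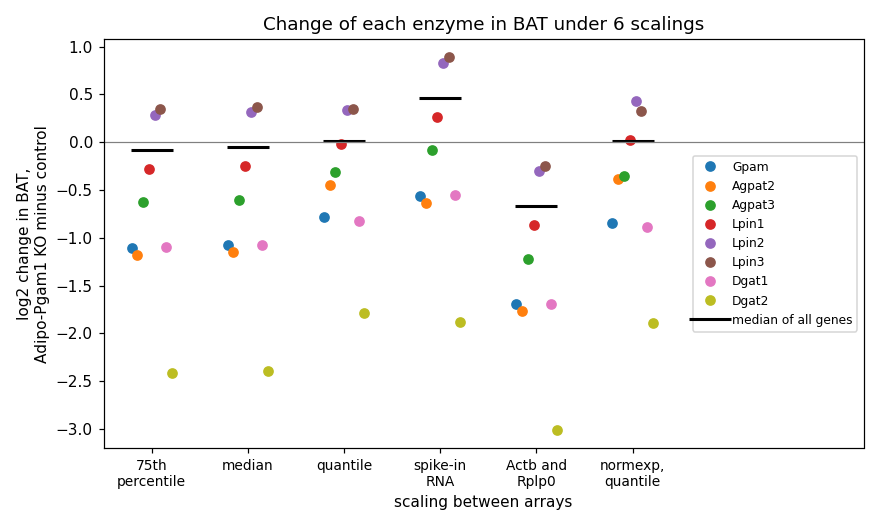
Log2 change of each enzyme in BAT, Adipo-Pgam1 KO minus control (vertical axis), with arrays scaled in 6 ways (horizontal axis). Coloured points are the 8 enzymes, set side by side within a scaling, and black bars are the median of all genes tested. Dgat2 is the lowest point under every scaling, from -3.01 to -1.79, while the black bars run from -0.67 to 0.46.

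Markers of several cell types moved in BAT along with these values. The summed level of 10 adipocyte markers, on the linear scale, was 2839 to 3369 in controls and 955 to 1324 in Adipo-Pgam1 KO mice, and 9 of the 10 were lower. Of 10 macrophage markers, 8 were higher, and their sum was 32.3 to 45.8 in controls and 111 to 163 in Adipo-Pgam1 KO mice. Of 7 fibroblast and preadipocyte markers 6 were higher, with sums of 128 to 174 and 234 to 336. All 10 markers of adipocytes and of macrophages were well above background on every BAT array. The sum of 10 brown adipocyte markers was 3328 to 3560 in controls and 1186 to 1905 in Adipo-Pgam1 KO mice, and 7 of the 10 were lower. Skeletal muscle markers were raised in Adipo-Pgam1 KO replicates 1 and 3 (summed level 133 and 25.8, against 3.18 to 4.90 in controls). Without these arrays all 5 calls held, where 50.9% of 14315 genes were called. Dgat2 was then at -2.42 and Lpin3 at 0.00. In whole tissue, fewer adipocytes and less RNA per adipocyte cannot be told apart, and the part of the other cell types in the 5 lower values was not tested.

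The promoters of 3 enzymes that fell in BAT, Gpam, Agpat2 and Agpat3, are shown with that of Lpin1, which did not pass the test, so that their base composition and short motifs can be compared. Each is the 250 bases before an annotated start, from RefSeq on GRCm38.p6, read 5′ to 3′ on the strand of the gene, which is the minus strand for all of them. Promoters were found for 6 of the 8 genes, with 10 starts, and those of Dgat1 and Dgat2 were not used here. Capitals mark any match, on either strand, to CACGTG (the E-box), AGGTCA (a nuclear receptor half-site), CCAAT (the CCAAT box), GGGCGG (the GC box) or TTNCNNAA (a loose C/EBP pattern). Gpam has 2 starts, at chr19:55099478-55099727 and chr19:55127239-55127488, and the other windows are chr2:26604418-26604667, chr10:78351701-78351950 and chr12:16610967-16611216.
Gpam, first start: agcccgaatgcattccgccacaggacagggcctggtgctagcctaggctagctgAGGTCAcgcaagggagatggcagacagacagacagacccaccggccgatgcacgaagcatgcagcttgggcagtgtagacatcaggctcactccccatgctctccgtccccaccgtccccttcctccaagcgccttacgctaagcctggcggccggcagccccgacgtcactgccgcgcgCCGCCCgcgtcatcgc
Gpam, second start: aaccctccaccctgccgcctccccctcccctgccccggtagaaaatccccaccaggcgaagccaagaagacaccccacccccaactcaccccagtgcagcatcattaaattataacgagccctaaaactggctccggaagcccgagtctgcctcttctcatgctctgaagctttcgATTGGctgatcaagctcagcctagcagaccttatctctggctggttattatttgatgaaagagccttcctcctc
Agpat2: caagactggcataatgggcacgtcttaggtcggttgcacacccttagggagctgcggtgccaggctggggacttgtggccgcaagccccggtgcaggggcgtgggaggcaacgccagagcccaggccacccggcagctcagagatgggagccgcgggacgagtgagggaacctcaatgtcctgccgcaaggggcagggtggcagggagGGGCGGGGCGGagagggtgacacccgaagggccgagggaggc
Agpat3: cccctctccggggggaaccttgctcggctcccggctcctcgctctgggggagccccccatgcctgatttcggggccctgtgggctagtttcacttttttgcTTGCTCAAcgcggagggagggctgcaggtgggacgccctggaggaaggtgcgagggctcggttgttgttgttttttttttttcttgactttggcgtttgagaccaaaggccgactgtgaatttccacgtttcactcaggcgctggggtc
Lpin1: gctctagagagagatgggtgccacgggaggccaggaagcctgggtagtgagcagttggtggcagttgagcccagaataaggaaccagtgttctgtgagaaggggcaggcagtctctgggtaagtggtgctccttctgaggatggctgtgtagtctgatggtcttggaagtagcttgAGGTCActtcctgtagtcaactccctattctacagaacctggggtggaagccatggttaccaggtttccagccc

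G and C made up 66.0% and 54.8% of the Gpam windows, 69.2% of Agpat2, 59.6% of Agpat3 and 54.8% of Lpin1, against a median of 52.4% over all 32851 promoters. AGGTCA, the half-site bound by nuclear receptors such as PPARγ and its partner RXR, was found once in the first Gpam window and once in that of Lpin1, and 14.0% of all promoters hold it on either strand. Agpat2 held the GC box at 2 overlapping places and the first Gpam window held it once, and 32.7% of all promoters hold it. The second Gpam window held 1 CCAAT box (33.8% of all promoters), and Agpat3 held 1 match to TTNCNNAA (36.8%). CACGTG was in none of these 5 windows, and it was in 1 of the 3 starts of Lpin2 and in 6.02% of all promoters. No motif was shared by the windows of all 3 genes that fell. A match is a stretch of letters and not a bound site.

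In gWAT, fewer of the 8 enzymes changed, and those that did were higher under the KO label. Agpat2, Agpat3 and Dgat2 were called as higher and none as lower. Of 14149 genes tested in gWAT, 17.8% were called, 9.99% as higher and 7.85% as lower. The median log2 change of the 8 enzymes was 0.25, against 0.05 for all genes tested. The groups did not overlap for 1 of the 8, Agpat2, which held for 24.2% of all genes.

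Agpat2 was at 7.78, 7.31, 7.82 and 7.31 in gWAT of controls and at 9.15, 8.91, 8.41 and 8.16 in the arrays labelled Adipo-Pgam1 KO. All 4 labelled arrays were above all 4 controls, and the lowest of them was that of the 14-week-old mouse. The log2 change was 1.103 (SE 0.24, limma adjusted p = 0.0193), or 2.15-fold higher. The second probe for Agpat2 gave 1.44 (SE 0.28, limma adjusted p = 0.0129). With the slide block, which sets 1 control against the 4 labelled arrays of slide 3, the change was 1.35 (SE 0.39, limma adjusted p = 0.141), of similar size with no call. The call was also lost with normexp and quantile normalization (0.80, limma adjusted p = 0.0589).

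Dgat2 was at 8.39, 8.11, 8.86 and 8.49 in gWAT of controls and at 9.20, 9.28, 9.07 and 8.80 in the arrays labelled Adipo-Pgam1 KO. The highest control overlapped the lowest labelled array. The log2 change was 0.63 (SE 0.18, limma adjusted p = 0.0480), or 1.54-fold, close to the threshold. Agpat3 was at 5.07, 5.32, 5.58 and 5.74 in controls and at 6.24, 6.27, 6.22 and 5.65 in the labelled arrays, where replicate 4 fell within the range of the controls. Its log2 change was 0.67 (SE 0.20, limma adjusted p = 0.0483). The second probe for Agpat3 gave -0.12 (SE 0.15, limma adjusted p = 0.610), so the rise of Agpat3 in gWAT rests on 1 of its probes. With the slide block Agpat3 was at 0.36 (limma adjusted p = 0.586) and Dgat2 at 0.60 (limma adjusted p = 0.363). Both calls were also lost with slide as a random block (adjusted p = 0.0528 and 0.0513) and with the replicate number as a block (adjusted p = 0.125 and 0.115, limma). All 3 gWAT calls depended on single arrays. Agpat2 lost its call without control replicate 2 or without labelled replicate 1 or 2, with changes of 0.94 to 1.27 over the 8 arrays left out in turn. Agpat3 (0.55 to 0.82) kept its call when control replicate 4 or labelled replicate 4 was left out and lost it in the other 6 cases, and Dgat2 (0.51 to 0.76) kept it without control replicate 3 or labelled replicate 4. The exact two-sided permutation test over the 8 gWAT arrays gave p = 0.0286 for Agpat2 and p = 0.0571 for Agpat3 and for Dgat2.

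The other 5 enzymes did not pass the test in gWAT. Dgat1 changed by 0.31 (SE 0.19, limma adjusted p = 0.299), from levels of 4.65, 4.61, 4.59 and 4.94 in controls to 5.43, 5.001, 5.05 and 4.53 in the labelled arrays. Gpam was at 5.38, 6.07, 6.24 and 6.50 in controls and at 6.37, 6.34, 6.37 and 5.87 in the labelled arrays, a log2 change of 0.19 (SE 0.24, limma adjusted p = 0.622). The Gpam groups overlapped on both sides. A second, dimmer probe for Gpam stood at -1.40, -0.79, -0.69 and -0.26 in controls and at 0.59, 0.25, 0.48 and -0.25 in the labelled arrays. That probe gave a log2 change of 1.05 (SE 0.27, limma adjusted p = 0.0304). It was matched to a curated transcript record of Gpam, and the brightest probe, on which the other Gpam values rest, to a predicted one. The levels of these 2 probes correlated with r = 0.72 over the 16 arrays, against 0.995 for the 2 probes of Agpat2. In BAT both Gpam probes fell by about the same amount, -1.10 and -1.05.

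The lipins in gWAT varied more among controls than between the labels. Lpin1 was at 4.08, 4.83, 4.63 and 5.68 in controls and at 4.95, 4.45, 4.79 and 4.49 in the labelled arrays (log2 change -0.13, SE 0.31). Lpin2 was at 1.21, 2.52, 0.46 and 0.28 in controls and at 1.14, 1.32, 0.88 and 0.81 in the labelled arrays (log2 change -0.08, SE 0.44). Control replicate 2 was far above the other arrays for Lpin2, and the change was 0.39 without it. Lpin3 was at 0.51, 0.21, 0.78 and 0.30 in controls and at 0.35, -0.10, 0.35 and 0.57 in the labelled arrays (log2 change -0.16, SE 0.19).

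**Figure D3:**
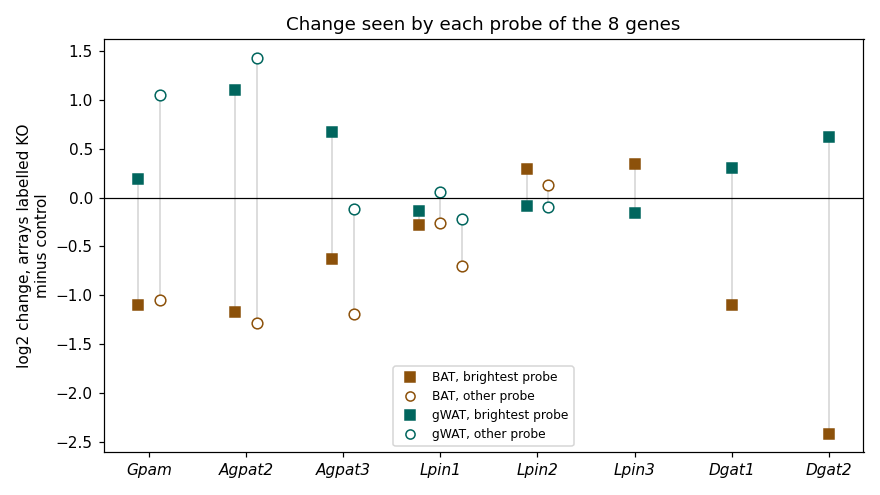
Log2 change, arrays labelled Adipo-Pgam1 KO minus control (vertical axis), for each probe of the 8 genes that was well above background on all 16 arrays (horizontal axis). Squares are the brightest probe, open circles the other probes, brown BAT and green gWAT. The probes of Agpat2 lie together in both tissues, while in gWAT the second probes of Gpam (1.05) and Agpat3 (-0.12) lie apart from the brightest ones (0.19 and 0.67).

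Cell type markers were read in gWAT too, where few were called outside the brown adipocyte list. The sum of 10 brown adipocyte markers was 13.1 to 23.9 in controls and 78.2 to 206 in the labelled arrays, against 3328 to 3560 in BAT of controls. Ucp1, the uncoupling protein that defines brown fat, exceeded background clearly on 3 of the 4 labelled gWAT arrays and on 0 of the 4 controls. The sum of the adipocyte markers was 2861 to 4446 in controls and 2267 to 3235 in the labelled arrays, and 2 of the 10 were lower. The macrophage sum was 84.2 to 121 in controls and 86.2 to 215 in the labelled arrays, with 1 of 10 markers called, as higher. None of the 7 fibroblast and preadipocyte markers was called. The sum of 9 epididymis and testis markers was 16.6 in control replicate 1 and 0.841 to 3.72 in the other gWAT arrays. Skeletal muscle markers summed to 3.75 to 25.9 in controls and 30.6 to 58.7 in the labelled arrays, with none of the 7 tested called by limma. Acta1, by far the brightest of them in gWAT, had a mean level of 3.28 in controls and 5.48 in the labelled arrays. The median log2 change of the 7 tested was -0.09. The part of these cells in the gWAT values was not tested.

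The response to the genotype label differed between the tissues for the same 5 enzymes that fell in BAT. The difference, the gWAT change minus the BAT change fitted over all 16 arrays, was called for 48.3% of 14820 genes, as higher for 27.4% and as lower for 21%. For Dgat2 it was 3.04 (SE 0.24, limma adjusted p = 1.87e-06). It was 2.28 for Agpat2 (SE 0.31, limma adjusted p = 6.23e-05), 1.40 for Dgat1 (SE 0.23, limma adjusted p = 2.50e-04), 1.30 for Agpat3 (SE 0.24, limma adjusted p = 5.63e-04) and 1.29 for Gpam (SE 0.32, limma adjusted p = 0.00387). For Lpin1, Lpin2 and Lpin3 it was 0.15, -0.37 and -0.50, none of which passed the test. The median difference was 1.30 over the 8 enzymes and 0.07 over all genes tested. With slide as a block, Agpat2 and Dgat2 kept the call, and Gpam was at 0.39 (limma adjusted p = 0.537), Agpat3 at 0.91 (0.0935) and Dgat1 at 0.96 (0.0709).

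**Figure D4:**
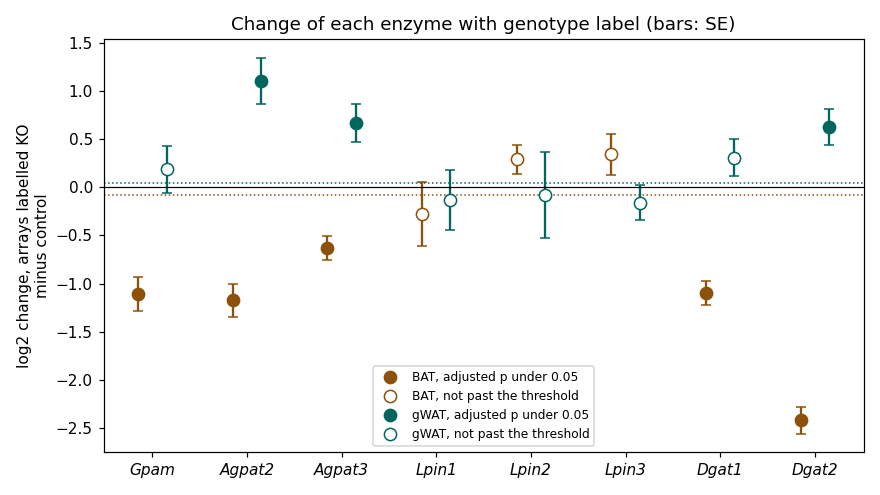
Log2 change of each enzyme, arrays labelled Adipo-Pgam1 KO minus control (vertical axis), in BAT (brown) and gWAT (green). Bars are SEs, filled points have an adjusted p under 0.05, and dotted lines are the medians of all genes tested (-0.08 in BAT, 0.05 in gWAT). Gpam, Agpat2, Agpat3, Dgat1 and Dgat2 are filled and below 0 in BAT, and Agpat2, Agpat3 and Dgat2 are filled and above 0 in gWAT.

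The tissues were then compared within each genotype label. In controls, 4 enzymes were lower in gWAT than in BAT and none was higher, where 64.7% of 14304 genes were called, 35.4% as lower in gWAT and 29.3% as higher. The groups did not overlap for these 4, which held for 60.8% of all genes. Agpat2 was lower by a log2 difference of -1.85 (SE 0.16, limma adjusted p = 2.19e-05), or 3.60-fold, and Agpat3 by -1.70 (SE 0.15, limma adjusted p = 2.44e-05). Dgat2 differed by -1.20 (SE 0.18, limma adjusted p = 5.03e-04) and Dgat1 by -0.60 (SE 0.13, limma adjusted p = 0.00303). The Dgat1 and Dgat2 calls were lost with quantile normalization, where they were at -0.21 and -0.20. Gpam was at -0.60 (SE 0.27, limma adjusted p = 0.0781), and its dimmer probe at -1.76 (SE 0.27, limma adjusted p = 5.23e-04). The lipins were at 0.20, 0.10 and 0.24 with no call.

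Between the tissues labelled Adipo-Pgam1 KO the order was turned for some of them. Dgat2 was higher in gWAT by 1.85 (SE 0.14, limma adjusted p = 2.74e-05), Dgat1 by 0.81 (SE 0.19, limma adjusted p = 0.00860) and Gpam by 0.70 (SE 0.14, limma adjusted p = 0.00455), and no enzyme was called lower by its brightest probe, where 46.1% of 14449 genes were called, 22.7% as higher and 23.4% as lower. The groups did not overlap for these 3 and for Agpat3, and for 43.1% of all genes. Agpat2 was at 0.43 (limma adjusted p = 0.181) and Agpat3 at -0.40 (limma adjusted p = 0.0954). The second probes differed from these calls, with Agpat3 lower in gWAT by -0.83 (SE 0.14, limma adjusted p = 0.00188) and Gpam at 0.34 (SE 0.22, limma adjusted p = 0.234), no call. Of the other Lpin1 probes, 1 was higher at 0.49 (limma adjusted p = 0.0485) and 1 was at -0.091. Agpat3 was also called lower with quantile normalization (-0.34) and by the mean over its probes (-0.62). Here BAT was on slide 2 and gWAT on slide 3, so slide and tissue cannot be told apart.

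The 4 group means of each enzyme put BAT of controls first for Gpam, Agpat2, Agpat3, Dgat1 and Dgat2. For Dgat2 the order went on with gWAT labelled Adipo-Pgam1 KO (9.09 ± 0.21), gWAT of controls (8.46 ± 0.31) and BAT of Adipo-Pgam1 KO mice (7.24 ± 0.17), each SD over 4 arrays. The ranges of both gWAT groups overlapped, and the BAT group of Adipo-Pgam1 KO mice lay below all others. For Gpam and Dgat1 the ranges of BAT of controls and of gWAT labelled Adipo-Pgam1 KO overlapped as well. Dgat1 had the same order as Dgat2, from 5.29 ± 0.14 in BAT of controls to 4.20 ± 0.17 in BAT of Adipo-Pgam1 KO mice. Agpat3 was lowest in gWAT of controls (5.43 ± 0.29), as was Agpat2 (7.56 ± 0.28). For the lipins the ranges of all 4 groups overlapped.

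Ratios of isozymes were compared within a tissue, 10 in all. Dgat2 over Dgat1 fell in BAT by 1.32 on the log2 scale (SE 0.19), with no overlap between the groups. The exact two-sided permutation p was 0.0286, the smallest possible, and 0.143 after adjustment over the 10 ratios. With 4 against 4 arrays an adjusted p under 0.05 was out of reach unless most of the ratios had reached that smallest p, so missing it says little about this change. Agpat2 over Agpat3 changed by -0.55 in BAT (SE 0.14) with the same p-values. The ratios use the brightest probe of each gene. By its second probe Agpat3 changed by -1.19 in BAT, close to the -1.18 of Agpat2, so the Agpat2 over Agpat3 value depends on the probe. In gWAT Dgat2 over Dgat1 changed by 0.32 (SE 0.22) and Agpat2 over Agpat3 by 0.43 (SE 0.28), and the second Agpat3 probe was at -0.12 there. The 6 ratios among the lipins ranged from -0.62 to 0.08.

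Other genes of the pathway were followed as lists. For these counts, 34% of all genes tested were lower and 27.5% higher in BAT, and 7.85% and 9.99% in gWAT. The values of the listed genes come from the main fit alone, without slide as a block. In gWAT all labelled arrays but only control replicate 4 were on slide 3, and the part of the slide in these calls was not tested. Among 12 other enzymes of the glycerol phosphate and monoacylglycerol routes, 11 were tested in BAT, where 4 were higher and 5 lower. Gpat4, the acyltransferase of the endoplasmic reticulum that does the same step as Gpam, fell by 1.76 (SE 0.13, limma adjusted p = 1.48e-05). The monoacylglycerol acyltransferases, which make diacylglycerol without the lipin step, went opposite ways. Mogat1 changed by -1.98 in BAT and -1.10 in gWAT, and Mogat2 by 1.78 in BAT and 4.15 in gWAT (SE 0.66, limma adjusted p = 0.00668). The mean level of Mogat2 went from -1.13 in controls to 0.65 in BAT, and from 1.64 to 5.79 in gWAT. Of the 11 tested in gWAT, 2 were higher and 2 lower, among them Gpat3, the other acyltransferase of the endoplasmic reticulum, at -0.88 (SE 0.22, limma adjusted p = 0.0294). Gpat3 was also the enzyme of this list with the largest difference between control tissues, 3.22 higher in gWAT than in BAT.

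Genes that supply glycerol 3-phosphate and acyl-CoA were lower in BAT in 5 of 8 tested, with 1 higher (median -1.004). Acsl1, the main long-chain acyl-CoA synthetase of fat, changed by -1.70, and Dbi, the acyl-CoA binding protein, by -1.41, while Acsl4 rose by 1.52. In gWAT 2 of 8 were higher and 1 lower. Gpd1, which makes glycerol 3-phosphate, was higher there by 0.91 (SE 0.27, limma adjusted p = 0.0469).

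Among 10 tested genes of lipin regulation and lipid droplet assembly, 9 were lower in BAT and 1 higher (median -1.08). Cidec, which enlarges droplets, fell by 2.40, Bscl2, or seipin, fell by 1.47, and Fitm2 fell by 1.26. The 1 that was higher in BAT, by 0.64, was Plin2, a coat protein of small droplets, named for BAT after its values were seen. Plin2 rose by 2.69 in gWAT (SE 0.18, limma adjusted p = 4.63e-04). In gWAT 3 of these 10 were higher and 1 lower. Cidea changed by 3.41, and Tmem159, or Ldaf1, the partner of seipin, by -0.96. Cidea is also a marker of brown adipocytes and Cidec of adipocytes in general, so these genes count in both kinds of list.

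The branches that draw on phosphatidic acid and diacylglycerol for phospholipids were lower in BAT for 8 of 16 genes and higher for 2 (median -0.39). Chpt1, which uses diacylglycerol to make phosphatidylcholine, fell by 2.06, Chkb, a choline kinase, fell by 1.57, and the other choline kinase, Chka, rose by 1.42. In gWAT 3 of 16 were higher and 2 lower, and Crls1, cardiolipin synthase, rose by 1.70. Genes of triglyceride hydrolysis and its control were lower in BAT for 7 of 7 tested (median -1.68). The largest changes were those of Ces1d (-3.18), G0s2 (-2.38, SE 0.67) and Pnpla3 (-2.10). G0s2 encodes an inhibitor of the lipase Pnpla2 and is not itself a lipase. In gWAT 1 was higher, Pnpla3 at 1.05, and 1 lower, Ces1d at -1.13.

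Of 10 regulators of lipid storage genes, 7 were lower in BAT and none higher (median -0.84). The largest changes were those of Ppara (-2.14), Ppargc1b (-1.94) and Cebpa (-1.11). Pparg, the master regulator of fat cells, named here after its values were seen and also 1 of the adipocyte markers, changed by -0.55 (SE 0.20, limma adjusted p = 0.0360). In gWAT the 2 that were higher, of 10 tested, were Mlxipl, the carbohydrate-response factor ChREBP (1.53, SE 0.21, limma adjusted p = 0.00384), and Srebf1, the insulin-responsive factor of fatty acid synthesis (0.91, SE 0.16, limma adjusted p = 0.0103).

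**Figure D5:**
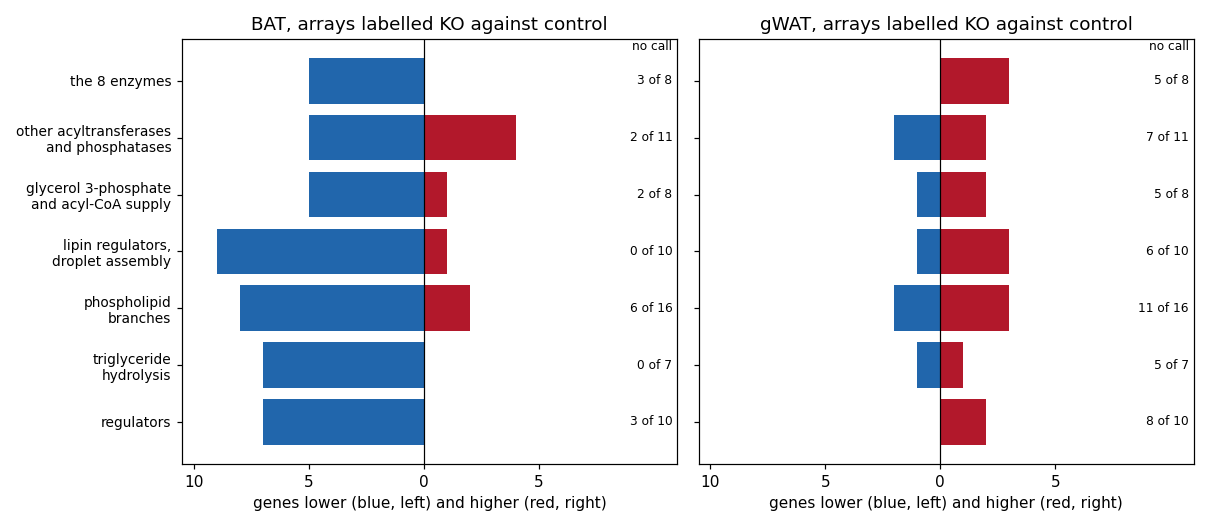
Number of genes lower (bars to the left) and higher (bars to the right) in arrays labelled Adipo-Pgam1 KO for the 8 enzymes and 6 other lists of the pathway (vertical axis), in BAT and in gWAT, with the number of tested genes without a call at the right. In BAT all lists have more lower than higher genes, from 5 and 4 of 11 to 7 and 0 of 7, while in gWAT most genes of each list have no call. Over all genes tested, 34% were lower and 27.5% higher in BAT, and 17.8% were called in gWAT.

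Across the 16 arrays, the genes whose level followed each enzyme most closely differed between them. These correlations run over 4 groups of arrays, so they mostly reflect the group means, and they were ranked over 12359 genes. Agpat3 was nearest to Gm11517 (Pearson r = 0.99), Mrpl13 (0.99) and Cox7a2 (0.99). Agpat2 was nearest to Tbc1d7 (0.96), Mpc2 (0.95) and Tesk1 (0.95), and Mpc2 is a subunit of the mitochondrial pyruvate carrier. Dgat2 was nearest to Pepd (0.97), Chpt1 (0.96) and Adk (0.95), and Dgat1 to Fitm2 (0.95), Usp4 (0.95) and Thoc3 (0.94). Gpam was nearest to Cenpb (0.95), Cog4 (0.95) and Yipf4 (0.94). The lipins had no partner as close, with Lpin1 nearest to Tead1 (0.88), Lpin2 to Gldc (0.86) and Lpin3 to Camk1g (0.76). Among the 8 enzymes themselves, Dgat1 and Dgat2 had r = 0.90, Gpam and Dgat1 had 0.87, and Agpat2 and Agpat3 had 0.83.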

How the data were processed

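Total RNA of BAT and gWAT was hybridised to 1-colour Agilent mouse arrays, 1 per sample, 16 in all. The authors scanned the arrays with Agilent Feature Extraction 10.7.1.1 (submitters' processing notes) and deposited the spot intensities, already background-corrected by that software. They also deposited a table of normalized values, which were found to be the linear ratio of each signal to its array's 75th percentile and served as an alternative. All columns of per-sample values were used.

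The processed signal was divided by the 75th percentile of the array over non-control probes and put on the log2 scale. Spots flagged irregular were left out and spots of 1 probe averaged. Of 56605 probes, 32994 matched a symbol in RefSeq by accession, giving 22911 genes, each read by its brightest probe. Genes that exceeded background clearly in 1 or more of the groups compared, on each of its 4 arrays (the scanner's well-above-background mark, in at least 0.5 of a probe's spots), were tested with limma 3.58.1 (lmFit and eBayes, R 4.3.3), within the groups compared, and p-values were adjusted by Benjamini-Hochberg at 0.05 over all genes tested. The test was checked on simulated data with independent noise and few changed genes. Those data held no slide or scaling difference, so the check says nothing about either. Single values were also given an exact two-sided permutation test. The alternatives were other scalings, background correction with normexp (offset 50), no filter, the mean over probes, slide as a block, the replicate number as a block, 1 fit over 16 arrays, other probes, the methods' t-test and leaving out each array.

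All 8 enzymes are named in every comparison, with up to 3 genes per other list, those with the largest change past the threshold. The members and lists were chosen with earlier results of these data known. The labels do not say whether the BAT and gWAT samples came from the same mice. Replicate correlations over genes were 0.971 to 0.994.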

Additional observations from a re-analysis of the deposited data

Results flagged for a closer look

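Within the Adipo-Pgam1 KO group of gWAT, replicate 4, the array of the 14-week-old mouse, was set apart for 2 enzymes. For Gpam its level of 5.87 lay below the other 3 arrays, with a gap of 0.947 of the group's range, and for Agpat3 its level of 5.65 lay below the others with a gap of 0.919. Both passed Dixon's critical value for 4 samples. Chance gives such a gap in about 1 in 20 groups, and 32 groups were examined for these enzymes. Without that array the gWAT change was 0.31 for Gpam and 0.82 for Agpat3. Age differed with this array in both tissues, and its part was not tested.

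The change with the genotype label differed between gWAT and BAT, by the test of the difference over 16 arrays, for Gpam (1.29), Agpat2 (2.28), Agpat3 (1.30), Dgat1 (1.40) and Dgat2 (3.04). Adipocyte and macrophage markers moved in BAT and brown adipocyte markers in gWAT, and their part in these differences was not tested.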

How the results depend on the processing

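Of 20 calls over the 5 comparisons, 501 of 544 alternative values kept direction and call, 42 kept the direction without the call and 1 reversed, Agpat3 in gWAT at -0.12 by its other probe, an alternative chosen after seeing the data, as was leaving out the BAT arrays with raised muscle markers. Of 528 alternative values for the 20 results without a call, 19 gained one and 35 reversed. In BAT, 5 enzymes were called without any 1 array (5 to 5), and 4 to 5 in the control tissues, 3 to 3 in the tissues labelled KO and 5 to 5 for the difference between tissues. Over all genes these fits called, in that order, 55.1% to 61%, 58.9% to 62.8%, 36.6% to 50.5% and 43.9% to 51%. In gWAT, 3 were called, with 0 to 3 when 1 array was left out, where 7.58% to 22.3% of all genes were called. That share was 17% with slide as a random block, 11.4% by the methods' t-test after Benjamini-Hochberg and 33% at its unadjusted threshold. The gWAT count was 1 with median centring, 5 with spike-in scaling, 1 with no filter on dim probes, 0 with slide as a fixed block, 1 with slide as a random block, 1 with the replicate number as a block, 0 by the methods' t-test after Benjamini-Hochberg and 3 at its unadjusted threshold. Over all genes 17.8% were called in gWAT, against 9.78% with median centring, 35.9% with spike-in scaling, 4.97% with no filter, 1.3% with slide as a fixed block and 7.68% with the replicate block. With slide as a fixed block 2 of the 5 differences between tissues were called, where 22% of all genes were, against 48.3%. Quantile normalization, alone or with normexp, called 2 of 8 between control tissues, where 4 were called. Over all genes tested between these tissues, 65.7% and 64.8% were called with it, against 64.7%. Slide could not be fitted between the tissues labelled KO.

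The replicate numbers were not taken as pairs. Between BAT and gWAT, same-numbered arrays of replicates 1 to 3 correlated in their deviations, at 0.16 to 0.22 in controls, each best with its own number, and at 0.11 to 0.29 under the KO label, but replicate 4 did not (-0.073 and -0.19), so whether numbers are mice shared by the tissues is not settled. Between genotypes, which are different mice, the range was -0.14 to 0.43. The replicate block changed no count but that of gWAT, at 5 in BAT, 5 for the difference, 4 between control tissues and 3 between tissues labelled KO. Over all genes it called 60.3%, 46.3%, 63.1% and 40.4% in the same order.

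The cause of the reversals was not tested. Spike-in scaling reversed Lpin1 in BAT (0.26) and Lpin1, Lpin2 and Lpin3 in gWAT (0.31, 0.36 and 0.28). Scaling on Actb and Rplp0 reversed Lpin2 and Lpin3 in BAT (-0.30 and -0.25), their difference between tissues (0.16 and 0.030), and Lpin1, Lpin2 and Lpin3 between control tissues (-0.14, -0.23 and -0.093). Median centring put Lpin2 in gWAT at 0.041. Quantile normalization put Gpam in gWAT at -0.059, Gpam between control tissues at 0.0022 and the Lpin1 difference at -0.30, and normexp put the latter at -0.43 and Lpin1 in BAT at 0.028. The mean over probes put Lpin1 between control tissues at -0.064, and other probes put it at -0.58 there, at -0.091 between tissues labelled KO and at 0.055 in gWAT. Slide as a fixed block put Gpam in gWAT at -0.26, Lpin2 at 0.76, the Lpin2 difference at 0.17 and Lpin1 between control tissues at -1.11. Leaving out 1 array gave, for Lpin1, -0.52 to 0.060 in BAT, -0.38 to 0.16 in gWAT, -0.19 to 0.44 for the difference and -0.095 to 0.54 between control tissues. For Lpin2 it gave -0.36 to 0.39 in gWAT, -0.65 to 0.10 for the difference and -0.36 to 0.38 between control tissues, and for Gpam -0.035 to 0.34 in gWAT.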

Other observations

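Lpin1 varied among the controls in the same order of replicate numbers in both tissues. Control replicate 4 was highest in BAT (5.62) and in gWAT (5.68), and control replicate 1 was lowest (3.89 and 4.08), with replicates 3 and 2 between them. The 4 arrays labelled Adipo-Pgam1 KO spanned 4.01 to 4.65 in BAT and 4.45 to 4.95 in gWAT. The labels do not say whether equal numbers are the same mouse. In both tissues control replicate 4 was also on another slide than control replicates 1 to 3, and the part of the slide was not tested.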
